A study of Drosophila melanogaster with 5 samples.

Results

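The transcripts described here are those of the normal larval central nervous system (CNS) of Drosophila melanogaster, as measured by RNA-seq in the control group of a study of the IP3 receptor, the calcium release channel of the endoplasmic reticulum. The control group consisted of 3 libraries, each from about 15 pooled CNSs dissected from larvae 84 h after egg laying. The control larvae carried 1 copy of UAS-dsitpr, an RNA hairpin against the IP3 receptor gene, and 1 copy of UAS-dicer, and had no GAL4 driver to switch either on. The remaining 2 libraries of the series came from larvae that also carried the ElavC155GAL4 driver and are not described here. The members are all genes whose row in the deposited expression table has the status OK, which left 11680 of 16508 genes listed. The status was given to genes with enough aligned reads for a test between the groups, so it does not by itself mark expression in the control.

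The larval CNS consists of 2 brain lobes and a ventral nerve cord. It holds differentiated larval neurons, which release fast transmitters and neuropeptides, and glia, which wrap, feed and insulate them. It also holds neuroblasts, the neural stem cells that at this stage divide to make the neurons of the adult, and the optic lobe primordia. The ring gland, which makes the steroid ecdysone, is attached to the brain lobes, and salivary glands, fat body, muscle, cuticle and imaginal discs lie close by in the larva. In RNA from a whole tissue, few cells with much of a transcript and many cells with little of it cannot be told apart.

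Abundance was read from the authors' control value of each gene in FPKM (fragments per transcript, scaled to transcript length and to the mapped fragments of the library), which allows levels to be compared between genes of different length. Beside it stands the authors' mean normalized read count over the control group, which was not scaled by length. Both are group values with no error given. No test was made, because a single group was described and the files hold no column for a single library. The spread between libraries was therefore taken from the normalized means themselves. Each printed mean is a sum of whole reads, each worth a fixed step in its library. There were 8197 genes with a mean above 0 and under 600. For 7983 of these, exactly 1 set of whole reads in 3 libraries, among the splits searched, gave the printed digits. Genes with a mean of 600 or more have no library values here. The libraries had size factors of 1.12, 1.10 and 0.826, and are called the deepest, the middle and the lowest-depth library, since nothing in the files ties them to the numbered samples. The mean normalized counts summed to 12645340 over the genes of the count table.

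The library of lowest depth stood apart from the other 2. Of 3210 genes with recovered reads and a mean of at least 50, 195 (6.07%) differed more than 2-fold between this library and the mean of the others, 46 of them higher and 149 lower. The same count was 43 (1.34%) for the deepest and 39 (1.21%) for the middle library. Across these genes, which are not independent replicates, the log2 values of the deepest and middle libraries had a Pearson r of 0.973, against 0.804 and 0.809 with the library of lowest depth. Values that rest on this library are given per library below. For most genes the libraries were close. The median coefficient of variation over the 3 libraries was 29.3% for genes with a mean of 10 to 30 reads, where read counting alone gives 23.6%, and 9.63% for genes with a mean of 300 to 600, where counting gives 4.83%. Neighbouring levels in the orders below that differ by less than this cannot be ranked.

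After removal of duplicate reads, most genes had a middling FPKM, and few stood far above the rest. Of the 11680 genes, 11144 (95.4%) reached 1 FPKM. Among the 10562 protein-coding genes the median was 42.7 FPKM and the quartiles were 15.1 and 74.99 FPKM. A level of 10 to under 100 FPKM was reached by 6864 protein-coding genes (65%), a level of 1 to under 10 by 1810 (17.1%), and a level of 100 or more by 1501 (14.2%). Only 382 were above 0 and under 1 FPKM, and 5 were listed at 0. Among the 4827 genes that the authors did not test for lack of reads, 1967 were listed at 0 and 2796 were above 0 and under 1 FPKM. Over all 16508 genes, 5299 were thus under 1 FPKM.

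**Figure D1:**
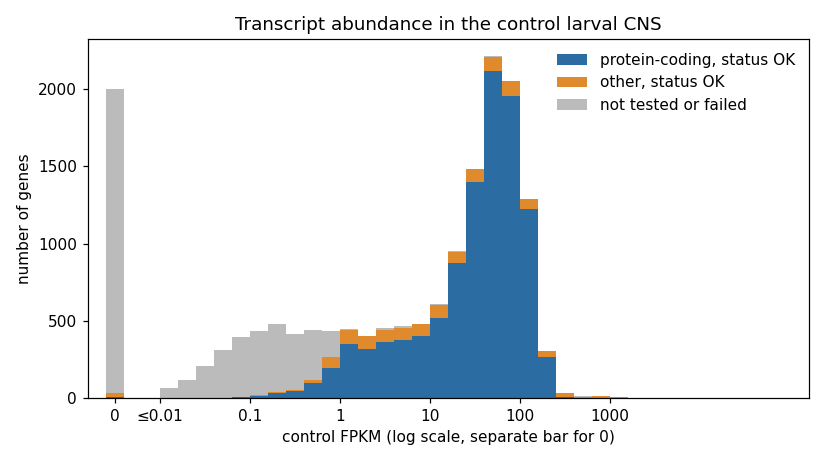
Number of genes by control FPKM (log scale, with a separate bar for genes listed at 0), stacked by protein-coding genes of status OK, other genes of status OK, and genes not tested or failed. The protein-coding genes peak around their median of 42.7 FPKM, and the untested genes lie nearly all under 1 FPKM.

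The upper end of the FPKM scale was narrow. The 10 most abundant protein-coding genes held 0.545% of the summed FPKM of protein-coding genes, the top 100 held 4.0% and the top 1000 held 27.4%. The highest mean count of any gene was 11199.8 reads, for beta-Spec, the beta subunit of the spectrin membrane skeleton, which is 0.0886% of all counts. The authors removed reads that looked like PCR duplicates, and by the study's methods a minority of the reads was kept. The levels given here are those after removal, and its effect on them was not tested. If duplicates were called from start and strand alone, at most 1 read would be kept per start and strand, that is 2 reads per base and library. The normalized reads per base of annotated exon fit under nearly the same bound: their median was 0.405, 1145 genes (10.8%) were at 1 or more, 9 were at 2 or more, and the highest was 2.19 for RpL41. Protein-coding genes of 50 to under 100 FPKM had a median of 0.668 reads per base, those of 100 to under 150 had 1.07, and those of 150 or more had 1.33. The order among the most abundant genes is less certain than their place near the top.

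**Figure D2:**
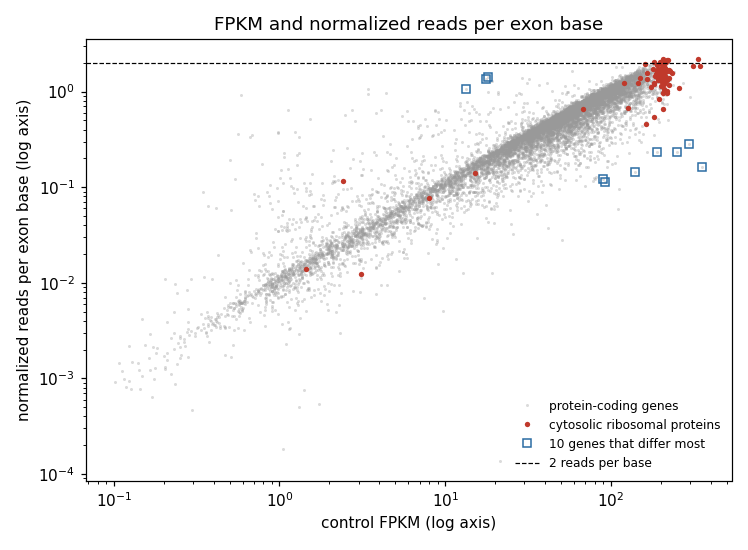
Normalized reads per base of annotated exon against control FPKM for protein-coding genes (both axes logarithmic), with cytosolic ribosomal protein genes in red and squares around the 10 genes whose 2 measures differ most. Nearly all points lie below the dashed line at 2 reads per base, and the squares lie far off the diagonal.

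Ribosomal proteins led the list. Of the 100 most abundant protein-coding genes 55 coded for cytosolic ribosomal proteins, and of the top 50 these were 31. RpL39 stood at 345 FPKM, RpL41 at 334 FPKM, RpL29 at 313 FPKM, RpS21 at 256 FPKM and RpL35 at 234 FPKM. The median over the 91 ribosomal protein genes of status OK was 201 FPKM, and 85 of all 94 listed were at 100 FPKM or more. The exceptions were variants of a protein that is also coded by another gene. RpS5b was at 15.2 FPKM, RpS19b at 7.997, RpS28a at 3.10, RpS10a at 2.42 and RpL22-like at 1.44 FPKM, and RpL10Aa was listed at 0.

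Among the most abundant genes outside the ribosome were lola (355 FPKM), a transcription factor gene of axon growth with many splice forms, MtnA (299 FPKM), a metal-binding metallothionein, Tm1 (295 FPKM), a tropomyosin, and mod(mdg4) (252 FPKM), a chromatin protein gene that also has many splice forms. The gene lola lies on chromosome 2R, 10481894-10543291 of dm6, and MtnA on 3R, 9783407-9784370. Genes known only by a CG number were also abundant. CG43117 stood at 273 FPKM with a mean of 391.6 reads over 319 exon bases, CG13364 at 240.4 FPKM, CG10320 at 220.4 FPKM, CG32198 at 218 FPKM and CG14482 at 217 FPKM. The next in order, from 213.6 to 205.4 FPKM, were CG11876, CG11300, CG7580, CG7630 and CG8369, which are too close to be ranked.

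The other machinery that every cell uses lay mostly in a narrow band after removal of duplicates. Median reads per exon base were 1.5 for translation factors, 1.365 for glycolysis and 1.323 for the respiratory chain. Whether removal of duplicates narrowed the band was not tested. The 10 translation factors had a median of 173 FPKM and ran from 131 for Ef1alpha100E to 188 for Ef1beta. The 12 glycolytic enzymes had a median of 171 FPKM, with Ald, the aldolase, at 198 and Hex-A, the hexokinase that starts the pathway, at 114.9 FPKM. The 18 genes of the respiratory chain and ATP synthase had a median of 169 FPKM, led by CoVIb at 204 FPKM. The lowest of them, Cyt-c-d, a cytochrome c known for its role in the testis, stood at 19.6 FPKM. Its 3 libraries held 139, 170 and 169 normalized reads. All 72 mitochondrial ribosomal protein genes were above the protein-coding median, between 59.4 FPKM for mRpS5 and 179 FPKM for mRpL34. The 8 chaperones had a median of 131 FPKM and a wider range, with Hsc70-4 at 175 FPKM, Hsp83 at 162 and Hsp60 at 156 FPKM, but Hsc70-2 at 54.5 and Hsc70-1 at 1.11 FPKM.

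**Figure D3:**
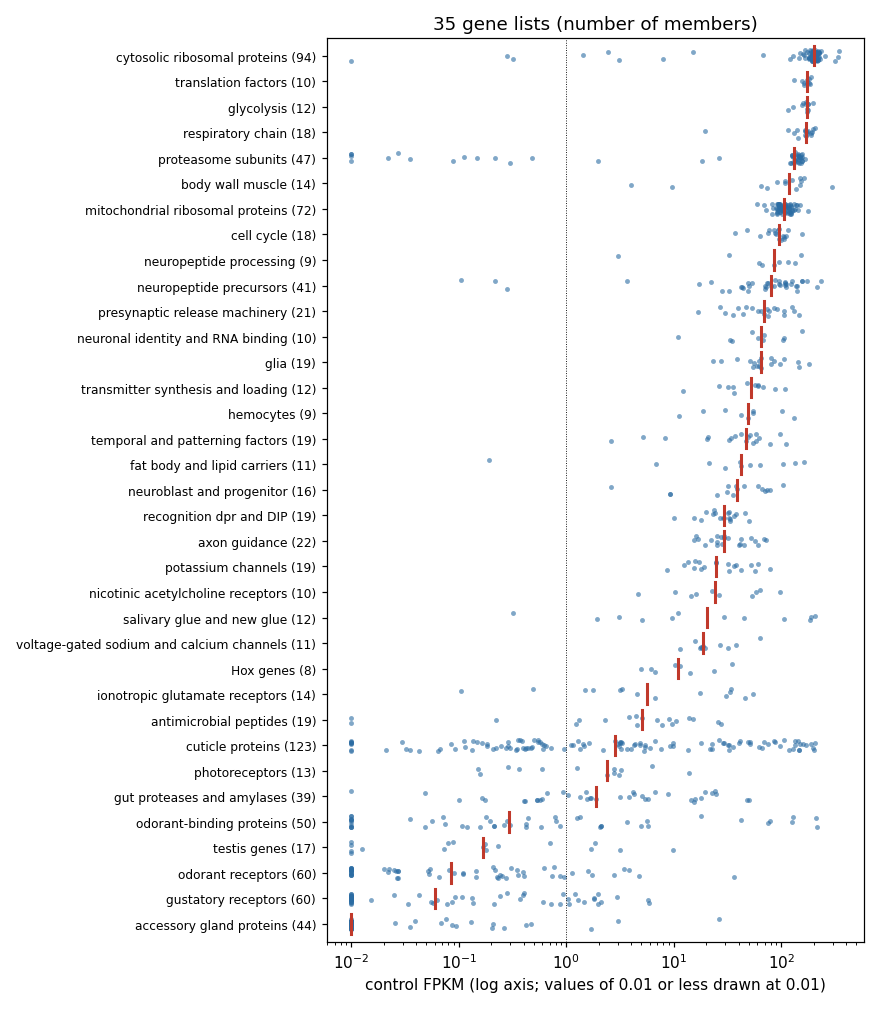
Control FPKM (log axis, values of 0.01 or less drawn at 0.01) of each member of 35 gene lists, whatever its status, with the median of each list as a red bar and the number of members in brackets. Ribosomal, glycolytic and respiratory lists have medians of 201 to 169 FPKM over members of status OK. The medians that follow are over all members, as drawn. Body wall muscle, at 117 FPKM, lies above the neuronal and glial lists. Among these, neuropeptide processing is at 84.7, glia at 64.3 and ionotropic glutamate receptors at 5.58 FPKM. Odorant and gustatory receptors and accessory gland genes have medians under 1 FPKM.

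Several of these families split into a set of abundant members and a set near 0. Of 47 proteasome genes 31 were at 100 FPKM or more, led by Prosalpha3 at 165 FPKM, and 13 were under 1 FPKM. Those 13 all carry the T or R suffix of second copies, many of which are known for expression in the testis. Prosalpha4T1 was at 0.478 FPKM, while Prosalpha6T and Prosbeta5R1 were listed at 0. Prosalpha1, at 18.2 FPKM, was the only core subunit without a suffix under 100 FPKM. This holds in FPKM alone, since its 1.41 reads per exon base were 7.61 times what that FPKM would give. It has a near-identical neighbouring copy and a second row in the table, so its reads may have been split. The vacuolar ATPase, the pump that acidifies vesicles and lysosomes, showed the same pattern. Of its 33 genes 17 were at 100 FPKM or more, led by Vha13 at 150.2 FPKM, and 12 were under 1 FPKM, among them Vha16-4 at 0.166 FPKM.

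Cytoskeletal genes differed by member as well. The general forms betaTub56D (185 FPKM), alphaTub84B (179.9 FPKM), Act5C (179 FPKM) and Act42A (159 FPKM) were abundant. Act57B, a muscle actin, was at 162 FPKM. The germline forms betaTub85D (9.91 FPKM) and alphaTub67C (1.65 FPKM) and the muscle actins Act88F (1.78 FPKM) and Act79B (0.950 FPKM) were scarce. Act79B had 16.9, 13.6 and 14.5 normalized reads in its 3 libraries, so its low level did not differ between them beyond counting error. Among the innexins, which form gap junctions, ogre (128 FPKM), Inx2 (124 FPKM) and Inx3 (103.5 FPKM) stood high. The neuronal electrical synapse gene shakB was at 3.84 FPKM and Inx7 at 2.27 FPKM, and the other 3 innexins were under 1 FPKM.

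The 10 genes of neuronal identity were all detected, as were 96.3% of protein-coding genes of status OK. The 10 had a median of 64.4 FPKM, which fell to 34.7, below the protein-coding median, when reads per exon base were put on the same scale. The synaptic vesicle protein gene nSyb stood highest at 157 FPKM, followed by the adhesion protein gene Nrg at 105 and the amyloid precursor protein homologue Appl at 103 FPKM. The pan-neuronal RNA-binding protein genes elav and fne were at 69.0 and 61.0 FPKM, and the related Rbp9 at 10.9 FPKM, with 493, 420.03 and 368 normalized reads in the deepest, middle and lowest-depth libraries. Of 21 genes of presynaptic release, 16 were above the protein-coding median of 42.7 FPKM. The vesicle protein Syb was at 145 FPKM, Csp at 133 FPKM, Rop, which binds syntaxin, at 126 FPKM, and cpx and shi, complexin and dynamin, both at 106 FPKM. The active zone genes brp (52.8 FPKM), Rim (29.6 FPKM) and unc-13 (27.1 FPKM) were lower, and Syt7 was lowest at 16.9 FPKM. In reads per exon base cpx, at 0.287, was under shi, at 0.753.

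All 12 genes for making or loading transmitters were above 10 FPKM. Of protein-coding genes 65% lay at 10 to under 100 FPKM and 14.2% at 100 or more. Gad1, which makes GABA, was highest at 107 FPKM. Ddc, shared by dopamine and serotonin synthesis, followed at 87.6 FPKM and Cha, which makes acetylcholine, at 67.7 FPKM. The vesicular transporters for GABA (VGAT) and monoamines (Vmat) were both at 60.1 FPKM, that for glutamate (VGlut) at 47.9 FPKM and that for acetylcholine (VAChT) at 26.2 FPKM. Of the enzymes for single transmitters, Trh, for serotonin, was at 57.5 FPKM, Tdc2 and Tbh, for tyramine and octopamine, at 36 and 35.6 FPKM, ple, for dopamine, at 31.7 FPKM, and Hdc, for histamine, lowest of the list at 12.1 FPKM. Hdc had 496, 504 and 462 normalized reads in the 3 libraries. Among reuptake transporters the glial glutamate transporter Eaat1 led at 84.6 FPKM, with SerT at 25.3 FPKM and DAT, for dopamine, at 10.9 FPKM.

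Neuropeptide precursors stood high, although many are made by few cells and not all are made by neurons alone. Of 41 precursors 32 were above the protein-coding median and 15 at 100 FPKM or more (35 of the 41 had shorter exons than the median protein-coding gene). Nplp4 stood at 236 FPKM and Nplp2 at 215 FPKM. Nplp2 is also known from blood cells, and so does not mark neurons alone. The insulin-like peptide genes Ilp2 (172 FPKM) and Ilp5 (156 FPKM) of the median neurosecretory cells were close to Lk, leucokinin, at 157 FPKM. Ilp3, of the same cells, was at 21.95 FPKM with 237, 192 and 87.1 normalized reads, the library of lowest depth being the lowest. Crz was at 141 FPKM, Hug at 139.9 FPKM, Capa at 136 FPKM, SIFa at 127 FPKM, Akh, the adipokinetic hormone of the ring gland, at 123.2 FPKM and Pdf at 107 FPKM.

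Most peptide genes with library values were somewhat higher in the library of lowest depth. SIFa had 521, 501 and 721 normalized reads, Pdf 533, 532 and 727, and Trissin 344, 319 and 465. Over the 17 precursors with library values of at least 10 reads, the median log2 ratio of that library to the mean of the others was 0.28, against -0.12 over all 5045 genes read at that minimum, and 3 of the 17 (Ilp3, Ilp1 and amn) were more than 2-fold lower there, as were 9.40% of those 5045 genes. A median ratio of this size was not particular to peptide genes. It was 0.286 over 9 mitochondrial and 0.281 over 5 cytosolic ribosomal protein genes, but -0.131 over 4 beat and side genes. The peptides that time moulting were lower in level: Eh was at 79.3 FPKM, CCAP at 53.3 FPKM, Ptth, which acts on the ring gland, at 42.8 FPKM and ETH at 41.8 FPKM. Ilp1 (3.70 FPKM), RYa (0.281 FPKM), amn (0.219 FPKM) and Nplp3 (0.104 FPKM) were scarce. The genes that process and store peptides were high too, with 7B2 at 152 FPKM, Pal2 at 133 FPKM, Phm at 114.996 FPKM and amon, the prohormone convertase, at 61.5 FPKM. The gene for dimm, the transcription factor of peptidergic cells, was at 3.00 FPKM.

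**Figure D4:**
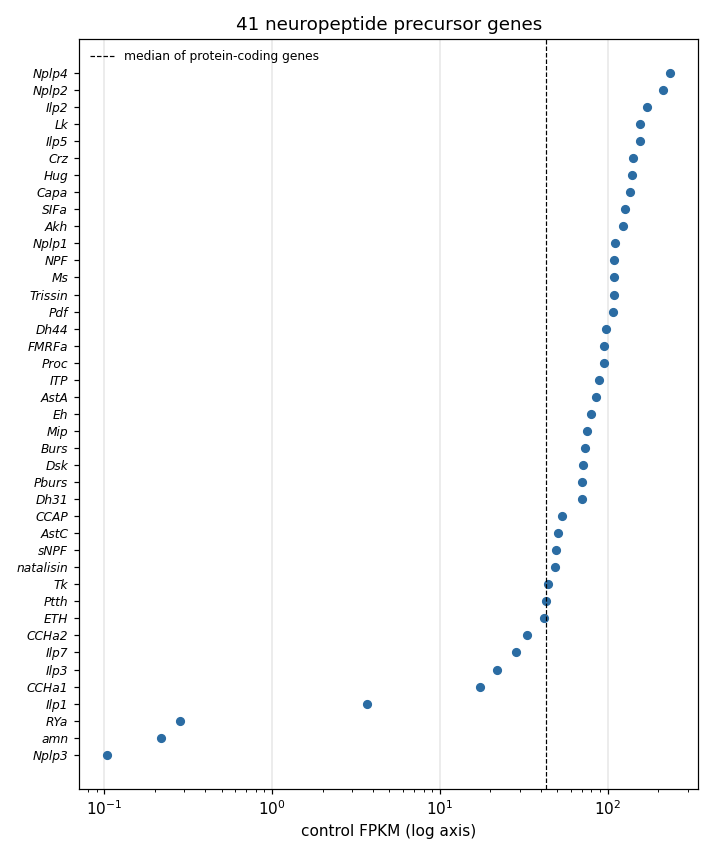
Control FPKM (log axis) of 41 neuropeptide precursor genes in order of level, with the median of protein-coding genes (42.7 FPKM) as a dashed line. Most precursors lie to the right of the line, and 4 lie under 4 FPKM.

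Ion channels and transmitter receptors were lower than the release machinery. The 11 voltage-gated sodium and calcium channel genes had a median of 18.7 FPKM. The sodium channel para was at 15.7 FPKM and the presynaptic calcium channel cac at 17.97 FPKM, and the highest was Teh2, an auxiliary subunit, at 63.7 FPKM. The 19 potassium channel genes ran from 78.1 FPKM for Irk3 through 57.3 for Shal and 41.8 for Shab to 19.2 for Sh and 8.57 for eag. Sh had 333, 315 and 211 normalized reads. The 3 genes of the sodium leak channel complex were close to each other, with unc80 at 44.9 FPKM, unc79 at 43.9 FPKM and na at 32.7 FPKM.

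The 10 nicotinic acetylcholine receptor subunits spanned 97.2 FPKM for nAChRbeta1 to 4.67 FPKM for nAChRalpha3. nAChRalpha2, nAChRbeta2 and nAChRbeta3 followed the highest at 63.4, 58.3 and 53.2 FPKM. Among chloride channel receptors, GluClalpha (47.9 FPKM), Lcch3 (35.6 FPKM) and the GABA receptor Rdl (30.9 FPKM) were expressed, while the histamine receptors HisCl1 and ort were at 3.00 and 0.0265 FPKM. Among ionotropic glutamate receptors the kainate-type CG3822 was at 54.8 FPKM and the NMDA receptor genes Nmdar1 and Nmdar2 at 46.1 and 33.6 FPKM. The receptors of the neuromuscular junction were scarce, with GluRIIC at 6.65 FPKM, GluRIID at 4.51 FPKM and GluRIIA at 3.27 FPKM. GluRIIA had 128, 135 and 137 normalized reads, so that the libraries did not differ beyond counting error.

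The 10 genes of intracellular calcium all reached 1 FPKM, as did 96.3% of protein-coding genes of status OK. Calmodulin (Cam) stood at 162 FPKM and the pump that fills the endoplasmic reticulum (Ca-P60A) at 119 FPKM. The sensor and channel of store-operated entry, Stim and olf186-F, were at 60.8 and 43.7 FPKM. Itp-r83A, the IP3 receptor gene that the silent hairpin is directed against, was at 24.7 FPKM with a mean of 3063 reads over 10331 exon bases (3R, 5517117-5539411). The ryanodine receptor RyR was at 10.5 FPKM. Dcr-2, which is also the gene usually supplied by a UAS-dicer transgene, was at 31.3 FPKM, and w, the eye colour gene that marks many transgenes, at 13.4 FPKM with 375, 382 and 343 normalized reads. Reads from a transgene and from the chromosomal gene were not separated.

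Recognition molecules that guide wiring formed a middle class with little spread. The 19 dpr genes, cell surface proteins of synaptic partners, had a median of 29.6 FPKM and lay between 9.99 FPKM for dpr6 and 50.3 FPKM for dpr5. The 15 beat and side genes lay between 11.4 FPKM for beat-IIIa and 47.2 FPKM for beat-VI. Axon guidance genes ranged from 15.4 FPKM for PlexB to 71.6 FPKM for Sema-2a, with the midline repellent sli at 60.5 FPKM, its receptor robo at 31.6 FPKM and Dscam1 at 52.7 FPKM. None of the genes of these 3 lists was under 9.99 FPKM or above 71.6 FPKM.

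Glia were well represented. Of the 19 glial genes 16 were above the protein-coding median and all exceeded 20 FPKM, with a median of 64.3 FPKM. Gs2, glutamine synthetase, stood at 181 FPKM, bnb at 145 FPKM, nrv2 at 142 FPKM, the astrocyte gene alrm at 106 FPKM and wrapper, of the glia that wrap axons, at 96.7 FPKM. The glial master gene repo was at 79.6 FPKM and the blood-brain barrier genes Mdr65 and moody at 79.6 and 51.4 FPKM. The early determinant gcm was lowest at 23.2 FPKM, with 491, 458 and 468 normalized reads. Septate junction genes, which seal the barrier, included cora at 119 FPKM, Lac at 98.2 FPKM and Gli at 27.6 FPKM.

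Cell cycle genes were high, and genes of neuroblasts ranged widely. The cell cycle list of 18 genes had a median of 94.5 FPKM, from PCNA, the replication clamp, at 156 FPKM and the mitotic cyclin CycB at 106 FPKM to CycD at 36.8 FPKM. The 16 neuroblast and progenitor genes had a median of 38.3 FPKM, and 7 of them were above the protein-coding median of 42.7 FPKM. Among them mira, an adaptor of asymmetric division, was at 103 FPKM, pros at 74.0 FPKM, brat at 70.4 FPKM, wor at 66.7 FPKM and ase at 44.5 FPKM. The neuroblast factor dpn was at 9.21 FPKM and the proneural genes sc and ac at 9.24 and 2.61 FPKM. The sc gene had 152, 165 and 79.9 normalized reads.

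The factors that mark the age and place of neuroblasts spanned a wide range. The temporal factor cas was at 112 FPKM, whereas hb and Kr, which act at the start of the embryonic series, were at 5.12 and 20.3 FPKM and pdm2 was at 8.24 FPKM. The RNA-binding proteins Syp and Imp, which in larval neuroblasts are known to oppose each other, were at 97.1 and 42.4 FPKM, and chinmo was at 37.2 FPKM. Syp, at 0.276 reads per exon base, was under the protein-coding median of 0.405 in that measure. The optic lobe factors D, slp1, ey, hth and tll lay between 47.1 and 62.3 FPKM. The 8 Hox genes, which pattern the body axis, were all detected, as were 96.3% of protein-coding genes of status OK. All 8 Hox genes were under the protein-coding median. Antp was highest at 35.1 FPKM, followed by abd-A at 23.4, Ubx at 14.0, Scr at 11.5, Abd-B at 10.3, pb at 6.70, Dfd at 6.19 and lab at 4.94 FPKM. Library values of Dfd were 227, 199 and 188 normalized reads and those of lab 113, 88.7 and 104.1. The levels of pb and Dfd lie too close together to be ranked.

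Steroid and growth signalling was represented unevenly. Of the ecdysone synthesis genes of the ring gland, phm was at 112 FPKM, sad at 99.8 FPKM, sro at 50.4 FPKM, spok at 30.7 FPKM and dib at 17.2 FPKM. The genes for the start of the pathway and for its last step outside the gland, nvd and shd, were at 5.29 and 2.89 FPKM. The ecdysone receptor genes EcR and usp were at 41.2 and 67.8 FPKM and the early response genes br and Eip75B at 79.1 and 64.2 FPKM. In reads per exon base br and Eip75B were at 0.124 and 0.221, under the protein-coding median of 0.405. Eip93F, a response gene of the later prepupa, was at 0.943 FPKM, with 91.0, 84.2 and 20.6 normalized reads. Thor, a target of the growth pathway, was at 130.4 FPKM, InR at 8.03 FPKM and slif, an amino acid transporter, at 3.88 FPKM with 95.4, 95.05 and 93.2 normalized reads.

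Of 9 clock genes 5 were at 10 FPKM or more, and 2 were above the protein-coding median. The gene sgg was at 90.9 FPKM, cyc at 60.5 FPKM, Pdp1 at 28.2 FPKM, cwo at 27.7 FPKM and vri at 15.8 FPKM. The others were lower, with per at 9.96 FPKM, cry at 6.84 FPKM, tim at 5.63 FPKM and Clk at 0.624 FPKM. In reads per exon base sgg was at 0.217, under the protein-coding median of 0.405, and cyc at 0.697. Sex determination genes showed fru, which has many neuronal splice forms, at 92.1 FPKM, Sxl at 79.4 FPKM, and dsx at 3.98 FPKM. The dsx gene had 206, 161 and 54.5 normalized reads, and was thus lower in the library of lowest depth. Of the small RNA genes, those of the siRNA and miRNA branches were expressed, with AGO2 at 97.9 FPKM, loqs at 97.0 FPKM and AGO1 at 62.0 FPKM. The germline genes aub, piwi and AGO3 were at 4.24, 1.97 and 0.538 FPKM.

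Markers of tissues other than the CNS were not all low. The 14 genes of body wall muscle had a median of 117 FPKM, with 9 at 100 or more, among them up (153 FPKM), wupA (136 FPKM), Mlc1 (125 FPKM) and Mhc (109 FPKM), while the giant muscle proteins sls and bt were at 9.56 and 3.997 FPKM. The serum proteins made by the fat body were at 164 FPKM (Lsp1beta), 133 FPKM (Lsp1gamma), 103 FPKM (Lsp1alpha) and 62.7 FPKM (Lsp2), and Fbp1, the receptor for them, was at 0.191 FPKM. Blood cell genes included PPO2 at 131 FPKM, PPO1 at 100.6 FPKM, Hml at 54.9 FPKM and NimC1 at 18.7 FPKM. NimC1 was uneven, with 605 normalized reads in the deepest library, 166 in the middle and 441 in that of lowest depth. Collagen genes Cg25C and vkg stood at 111 and 90.2 FPKM. Whether these transcripts came from cells carried over at dissection or from the CNS was not tested.

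Salivary gland genes came mostly from 2 of the 3 libraries wherever the libraries could be read. Of the 12 genes 4 reached 100 FPKM, and the median of 29.5 FPKM was under that of protein-coding genes. The new glue genes ng3, ng1 and ng2 stood at 207, 189 and 186 FPKM, too abundant for library values except as a mean. Sgs7, a glue protein gene (3L, 11509861-11510247), was at 106 FPKM. It had 265 and 241 normalized reads in the deepest and middle libraries and 10.9 in that of lowest depth. Sgs8 had 155, 135 and 4.84, Sgs4 had 239, 183 and 25.4, and Eig71Ee had 258, 255 and 0 normalized reads. All 7 genes of the list with library values of at least 10 reads were more than 2-fold lower in the library of lowest depth, as were 9.40% of the 5045 genes with a mean of at least 10. Their median log2 ratio was -4.77 and their normalized reads summed to 995, 896 and 48.4. The FPKM of these genes is therefore not the level of every control library.

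**Figure D5:**
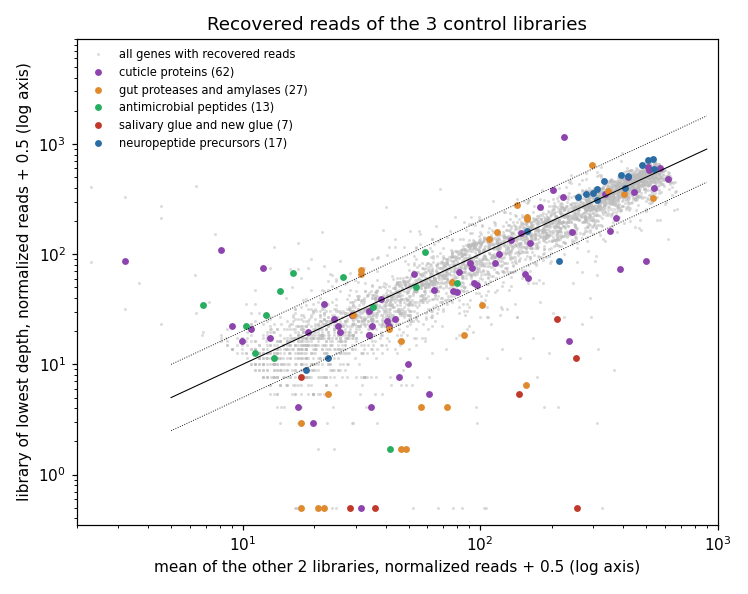
Normalized reads plus 0.5 in the library of lowest depth against the mean of the other 2 control libraries (both axes logarithmic), for genes with recovered reads and a mean of at least 10, with 5 gene lists in colour, the line of equality and dotted lines at 2-fold. The 7 salivary genes lie below the lower dotted line, cuticle genes and gut proteases scatter to both sides, and 3 of 17 neuropeptide genes lie below the lower line.

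Other genes of epithelia and gut were also uneven in the same library, more of them lower than higher. Among the cuticle protein genes 15 were at 100 FPKM or more, led by Lcp3 (204 FPKM), Cpr47Eg (199 FPKM), Lcp4 (198 FPKM) and Lcp65Ac (191 FPKM), and 53 were under 1 FPKM. Of the 62 with library values 13 were more than 2-fold lower and 5 more than 2-fold higher in the library of lowest depth, against 9.40% and 2.34% of all genes read at that minimum. Lcp9 (146 FPKM) had 499, 497 and 87.1 normalized reads and Cpr65Aw (49.1 FPKM) 235, 239 and 15.7. TwdlO (75.6 FPKM) went the other way with 224, 225 and 1153. Of 39 gut proteases and amylases none reached 100 FPKM, and betaTry led at 50.2 FPKM with 376, 311 and 378 normalized reads. Of the 27 with library values 13 were more than 2-fold lower and 3 more than 2-fold higher in the library of lowest depth, with a median log2 ratio of -0.97. Jon66Ci had 164, 148 and 6.05, and Jon65Aiv 314, 277 and 643 normalized reads.

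The genes that differed most between the libraries were picked after their values were seen. CG17105 (79.3 FPKM) had 376, 349 and 0 reads before normalization in the deepest, middle and lowest-depth libraries, CG17107 had 381, 309 and 2, and CG14258 had 332, 479 and 7. In the other direction, CG10910 (6.544 FPKM) had 1, 3 and 336 reads, CG13043 had 2, 4 and 270.0, and CG13545 (39.3 FPKM) had 4, 9 and 345. Among antimicrobial peptide genes, which were low at a median of 6.97 FPKM (4.31 from reads per exon base on the same scale), 6 of 13 with library values of at least 10 reads were more than 2-fold higher in the library of lowest depth, against 2.34% of all genes read at that minimum. AttD had 15.2, 16.3 and 66.6 normalized reads, whereas Def had 46.4, 36.2 and 1.21.

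Detoxification genes were mixed. Of 35 glutathione S-transferases 19 were above the protein-coding median, led by GstO2 (194 FPKM), GstD1 (182 FPKM) and GstS1 (164 FPKM). Of 82 cytochrome P450 genes 9 were above it, and only Cyp4g15, at 108 FPKM, reached 100 FPKM. Odorant-binding proteins, small carriers of the sensory hairs and of blood, were split. Obp99a was at 216 FPKM and Obp44a at 211 FPKM, among the 50 most abundant protein-coding genes, with Obp99c at 129 FPKM and Obp99b at 124 FPKM. Of the 50 genes, 33 were under 1 FPKM and 11 were listed at 0. Obp56d had 287, 296 and 26.6 normalized reads.

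The receptors of the sense organs were close to absent in FPKM. Of 60 odorant receptors 52 were under 1 FPKM and 16 were listed at 0, with a median of 0.0849 FPKM over all 60 members, whatever their status. Or43b stood at 36.2 FPKM, but its locus in the table also holds another gene, Cul1, so part of its reads may belong to that gene. The co-receptor Orco was next at 4.71 FPKM, with Or83a at 3.83 FPKM. Of 60 gustatory receptors 47 were under 1 FPKM and 24 at 0, and the highest were Gr43a, the fructose receptor of the brain, at 5.82 FPKM and Gr61a at 5.70 FPKM. Gr43a is known to be made by a few brain neurons. Of 60 ionotropic chemosensory receptors 50 were under 1 FPKM and 20 at 0, led by Ir76a at 18.3 FPKM and Ir75d at 11.5 FPKM. Of 29 pickpocket channels 23 were under 1 FPKM, and ppk13, at 19.7 FPKM, ppk28, at 11.9 FPKM, and ppk29, at 10.7 FPKM, were the highest. Yet 14 of the 29 had recovered reads with a mean of at least 10. For example, ppk19 was at 1.51 FPKM with a mean of 126.9 normalized reads. The gene ppk itself, a marker of body wall sensory neurons, was at 0.910 FPKM with 37.5, 37.1 and 16.9 normalized reads.

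Photoreceptor genes were low, and the rhodopsin ninaE of the adult eye was at 0.149 FPKM. The larval eye uses Rh5 and Rh6, and these were at 2.75 and 1.24 FPKM. Rh5 had 49.1, 50.7 and 25.4 normalized reads. The transcription factor gl was the highest of the 13 genes at 13.9 FPKM. Genes of the reproductive organs were low too. Of 44 accessory gland genes 41 were under 1 FPKM and 28 were listed at 0, with Acp95EF at 26.4 FPKM from 26.8, 39.8 and 24.2 normalized reads over 243 exon bases. Of 17 testis genes 13 were under 1 FPKM, and betaTub85D was the highest at 9.91 FPKM. Of 17 yolk, chorion and vitelline genes 13 were under 1 FPKM, with Cp18 at 6.03 FPKM. A value of 0 FPKM does not exclude transcripts: Obp51a, another gene listed at 0, had 26.8, 23.5 and 12.1 normalized reads in the count table.

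Non-coding genes held the highest FPKM values of the table, on few reads and short lengths. None of the 25 genes with the highest FPKM was a protein-coding gene. The gene mir-1003 was at 3817 FPKM from a mean of 59.9 normalized reads over 56 bases (3R, 24658605-24658660), and mir-1011 was at 2103 FPKM from 5.01 reads over 54 bases. Both lie inside the locus of a coding gene, CG6695 and Ir93a, whose reads in that place cannot be told apart from theirs. snoRNA:Me18S-C1831, a guide RNA for ribosomal RNA methylation inside the RpL27A locus, was at 3094 FPKM from 158 reads over 72 bases. Of 234 microRNA genes 174 were listed at 0 FPKM, but 101 of these had reads in the count table and 57 had a mean of at least 10, so a value of 0 FPKM does not mean that no read overlapped the gene. The labels name no small RNA protocol, and these values do not measure mature microRNAs. Of 2010 non-coding genes named CR, 1449 were under 1 FPKM and 19 reached 100 FPKM. CR40962 was at 374 FPKM and CR44431 at 150.3 FPKM.

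The histones of the replication cluster were low at a median of 7.18 FPKM over 62 genes. These mRNAs mostly lack a poly(A) tail (whether the libraries were selected for one is not given in the sources used here), and the genes are near-identical repeats, so single copies are uncertain. His4:CG33901 and His4:CG33909 carried the same mean of 37.0 reads and were at 17.1 and 15.5 FPKM. The replacement variants His3.3A (179 FPKM) and His2Av (170.4 FPKM), whose mRNAs are polyadenylated, were abundant.

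Abundance varied little with place in the genome. The median of protein-coding genes was 41.1 FPKM on 2L, 42.9 on 2R, 41.8 on 3L, 43.97 on 3R and 44.6 on X. On the small chromosome 4, with 75 genes, it was 26.0 FPKM, and 4% of its genes reached 100 FPKM against 13.5% to 15.1% on the other chromosomes. Length mattered more at the top. Of the fifth of genes with the shortest exons (median 742 bases) 25.9% reached 100 FPKM, and of the fifth with the longest (median 5646 bases) 4.92%, while the medians of these groups were 41.8 and 37.5 FPKM.

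FPKM and normalized reads per exon base ranked protein-coding genes alike, with a Spearman rho of 0.938 over 10557 genes, which share libraries and are not replicates. Without division by length rho was 0.690. More than 4-fold differences remained for 214 genes. The FPKM of lola was 22.3 times the value that its reads over 24895 exon bases would give, and that of mod(mdg4) was 10.9 times, of Tm1 10.6 times, of Ggamma30A 9.98 times, of Mlp60A 8.33 times, of fru 8.31 times and of CG34310 7.44 times. In the other direction CG42455 was 7.93 times lower in FPKM, Prosalpha1 7.61 times and CG8223 7.54 times. In the table lola and mod(mdg4) share their locus with other genes. The high rank of lola, mod(mdg4) and Tm1 therefore holds for FPKM and not for reads per base.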

How the data were processed

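RNA-seq libraries were made from total RNA of pooled larval CNSs, and 3 control libraries were described here. Per the labels and the study's methods, reads were aligned to dm6 with TopHat2 2.0.11 and PCR duplicates were removed. The FPKM values are those the authors deposited as the control value of Cuffdiff 2.2.0, and the signal values are the authors' mean counts per gene divided by DESeq size factors. Whether genes were counted by strand is not given in the sources used here, so overlapping genes may share reads. The control column of the count table was taken from its first group, in which 3 libraries could be resolved. The deposited columns of fold changes and p-values, and another table of log2 average counts over both groups, were not used.

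Symbols were matched to the Ensembl release 115 annotation, 12300 directly and 3953 through an older symbol, which left 255 without length or biotype. Another 2 rows with a repeated symbol were left out, and 11 symbols of the count table read as dates. Whole reads per library were recovered from means under 600, searching all splits under 100 and splits within 60% of an even share above, with a full search where none was found. On simulated data every solution found was right (100%). The simulated libraries were close to even, so this did not test genes with uneven libraries and a mean of 100 or more. Ratios between libraries used a pseudocount of 0.5 and a mean of at least 10 or 50 reads, as stated. List medians are over members of status OK unless all members are said to be counted. The 65 gene lists and the rule for named genes (the 25 highest, up to 5 highest and the lowest of each list, 10 highest CG genes, the 10 genes in which FPKM and counts differ most, and w, Dcr-2 and Itp-r83A) were chosen with earlier results of these data known. Further list members were named after their values were seen. Alternatives were other detection minimums, other rows, counts per kilobase, and leaving out each library. Python 3.11.15, pandas 2.3.3, NumPy 2.4.6 and SciPy 1.17.1 were used.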

Additional observations from a re-analysis of the deposited data

How the results depend on the processing

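The 11144 detected genes became 11490, 10512 and 9644 at a minimum of 0.5, 2 and 5 FPKM, and 11209 with rows of any status. Leaving out each library in turn, with the FPKM scaled by the recovered reads, gave 11104 to 11175. The 1000 most abundant genes held 29.9% of the FPKM sum, and 24.9% to 29.8% under the alternatives. A median of 50 FPKM or more was reached by 28 of 65 lists, by 22 in counts per kilobase and by 25 over members of any status. Single list medians moved by over 1.5 times for 8 lists in counts per kilobase and 15 lists over members of any status. Counts per kilobase moved the medians of neuronal identity genes to 34.7 and of temporal factors to 17.9. Also moved were innexins to 46.5, ecdysone receptor and response genes to 16.6 and clock genes to 11.7. The remaining moved medians were antimicrobial peptides at 4.31, chloride channel receptors at 4.07 and testis genes at 3.56. Over members of any status, microRNA genes fell from 65.6 to 0 FPKM and innexins from 103.5 to 3.05 FPKM. The alternative without the library of lowest depth, chosen after seeing the data, cannot raise a mean by more than 1.5 times, and the single-library values in the report show its part. No paired analysis was possible because 1 group was described and the columns carry no replicate number. Depth limits genes with means under 30 reads. Whether removal of duplicates limits the order of genes near 2 reads per base was not tested.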

Other observations

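The count table gave reads to some genes that the FPKM table placed near 0. Obp57d was at 0.283 FPKM with a mean of 417 normalized reads, Acp63F at 0.130 FPKM with 183 reads, ppk27 at 0.0218 FPKM with 121 reads and ppk25 at 0.135 FPKM with 140.5 reads. These genes were picked after their values were seen. Over protein-coding genes with both values above 0, FPKM was more than 4-fold lower than the reads per exon base for 138 genes and more than 4-fold higher for 76.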
